A study of Homo sapiens with 30 samples.

Results

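The proteasome genes described here are the 45 symbols that begin with PSMA, PSMB, PSMC, PSMD, PSME, PSMF or PSMG followed by a number, leaving out the immunoproteasome subunits PSMB8, PSMB9 and PSMB10. They take 45 of the 18132 entries of the RNA-seq table and 45 of the 20582 entries of the PRO-seq table. PSMA2 has 2 RNA-seq entries, and PSMA8 is in the PRO-seq table alone. The genes were sorted by role into the core particle (16 genes, in the alpha and beta rings), the regulatory cap (17 genes, in its base and lid), activators or an inhibitor (5 genes) and assembly factors (7 genes). After the filter on low counts 43 RNA-seq entries and 43 gene bodies were tested. PSMB11 and the second PSMA2 entry fell below the RNA-seq filter, and PSMA8 and PSMB11 fell below the gene body filter.

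The proteasome degrades proteins that carry ubiquitin chains. Its core is a barrel of stacked rings: the outer alpha rings gate entry, and the inner beta rings hold the proteolytic sites. The cap recognises the ubiquitin chain, removes it and unfolds the substrate with a ring of ATPases. Dedicated chaperones, the PSMG proteins for the core and PSMD5, PSMD9 and PSMD10 for the base of the cap, guide assembly and are absent from the finished particle. MYC is a transcription factor that binds as a dimer with MAX, often at the sequence CACGTG, and it is itself a proteasome substrate.

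The cells were G401, an established human malignant rhabdoid tumour line of the kidney, and its derivative DTMYC. DTMYC cells had lost their own MYC gene to CRISPR and carried lentiviral MYC joined to an HA and FKBP12F36V tag, so that dTAG47, a compound that recruits tagged proteins for degradation, can deplete it. RNA-seq covered DTMYC cells in 500 nM dTAG47, DTMYC cells in DMSO, parental cells in 500 nM dTAG47 and parental cells in DMSO, each for 24 h with 3 libraries. PRO-seq, a count of polymerases in the act of transcribing, covered DTMYC cells after 4 h with 2 dTAG47 and 2 DMSO libraries. MYC ChIP-seq (3 dTAG47 and 2 DMSO libraries, 4 h) and ATAC-seq of open chromatin (3 dTAG47 and 3 DMSO libraries, 24 h) were also from DTMYC cells. Parental cells carry no tagged MYC, so dTAG47 in them shows the effect of the compound without that target. DTMYC MYC is driven from a lentivirus and not from its own locus.

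RNA-seq libraries held 27854207 to 54633745 counts. Gene body totals in PRO-seq ran from 18209879 to 23256313, and promoter-proximal totals from 1216928 to 1632084. The labels do not say that replicates came from separate cultures, so p-values measure the spread between these libraries, which may be technical. Library 3 of parental cells in DMSO stood apart: its median correlation with its group was 0.982, against 0.988 to 0.996 for the other 11. VIM, a mesenchymal gene expected in this line, lay between 609.7 and 757.8 CPM (counts scaled to library size), and the leucocyte gene PTPRC did not exceed 0.0232 CPM. Summed over the 6 kidney epithelial markers (CDH1, EPCAM, PAX8, CDH16, LRP2 and UMOD), levels were 1.64 to 1.84 CPM in DTMYC cells in dTAG47, 0.786 to 0.889 CPM in DTMYC cells in DMSO, 6.03 to 6.69 CPM in parental cells in dTAG47 and 5.12 to 6.34 CPM in parental cells in DMSO. The 5 blood markers in the table summed to at most 0.667 CPM and the 3 neuronal ones to at most 1.152 CPM in any library. Their part in the results was not tested. SMARCB1, the gene lost in rhabdoid tumours, was not analysed here. MYC mRNA was 1478, 1404 and 1349 CPM in DTMYC cells in dTAG47, against 1329, 1353 and 1418 CPM in DMSO. Degradation acts on the protein, so this mRNA does not check it. Proteasome genes took 0.778 ± 0.005% of counts in DTMYC cells in dTAG47, 0.758 ± 0.022% in DTMYC cells in DMSO, 0.801 ± 0.021% in parental cells in dTAG47 and 0.846 ± 0.039% in parental cells in DMSO (SD, n = 3 each).

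MYC regions, the union of overlapping peaks of the 2 DMSO libraries, lay with their midpoints within 1000 bases of a start site for 23 of the 43 proteasome genes that had one, against 25.7% of the 13108 entries tested. For 6 genes (PSMC4, PSMG1, PSMG4, PSMD14, PSMA1 and PSMC2) both DMSO libraries had the peak, against 7.94% of entries. Open, abundant promoters are bound more often in general: of the 29 proteasome genes open in every ATAC library with at least 71.7 CPM, 17 had a region, against 47.8% of entries in that class. By role, regions lay at 9 of 14 core genes, 7 of 17 cap genes, 3 of 5 activators or inhibitor and 4 of 7 assembly genes. Peaks in both libraries were found at 1 core gene, 3 cap genes and 2 assembly genes.

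The sites below are those of the highest-scoring regions that hold CACGTG. Coordinates are hg19, the letters are the plus strand, and capitals mark CACGTG (the same on both strands) and CCAAT or its complement ATTGG. The PSME3 site lies at chr17:40985360-40985389, in an exon of PSME3. The PSMD9 site (chr12:122326553-122326582) and the PSMC4 site (chr19:40476641-40476670) lie outside annotated transcripts. The PSMG4 site, chr6:3259947-3259976, is in an intron of PSMG4. The last is the 250 bases before the most upstream start site of PSMB3 (chr17:36908744-36908993), within the MYC region and free of annotated exons.
PSME3: ggctgcgcagcgCACGTGcacagcctcgca
PSMD9: tcaccacaggcgCACGTGttccggcagggc
PSMC4: ttggatcagcgcCACGTGgagaccttaccc
PSMG4: ttcttcacactcCACGTGctgagtccctag
PSMB3: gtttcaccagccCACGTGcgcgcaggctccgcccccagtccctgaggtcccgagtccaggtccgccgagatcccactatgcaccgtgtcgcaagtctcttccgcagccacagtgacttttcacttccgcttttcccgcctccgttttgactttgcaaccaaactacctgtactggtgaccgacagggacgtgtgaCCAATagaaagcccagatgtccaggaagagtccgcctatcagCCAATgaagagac

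CACGTG occurred in 7 of the 23 proteasome regions. In windows of 501 bases around region midpoints it occurred in 5 of 23, against 34.9% of the 2879 regions at start sites of entries tested. In RefSeq promoters (GRCh38.p14, from 250 bases before the start into bases after it, either strand), 39 of the 45 genes were matched. CACGTG was in 3 of these 39 against 10.1% of the 9830 promoters of genes tested in RNA-seq. CCAAT was in 18 against 36.0%. TGANNNNGC, a pattern looser than the core of the antioxidant response element, was in 24 against 42.8%. The 39 include PSMA8 and PSMB11, which were not tested in RNA-seq. PSMB11 is counted for CCAAT, and both are counted for TGANNNNGC.

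The strongest regions lay at genes of different roles. The peak score (10 times −log10 of the q value from MACS2) was 290 at PSME3, a nuclear activator of the core, in DMSO library 1, with no peak in DMSO library 3. PSMB3, a beta ring subunit, scored 277 in DMSO library 1. PSMD9, a chaperone of the base, scored 192 in the same library. Scores in both DMSO libraries were 167 and 71 for the ATPase PSMC4, 127 and 38 for PSMG1, and 65 and 112 for PSMG4. After 4 h of dTAG47 the PSMB3 region was the only proteasome region that still had a peak, with a score of 91 in dTAG47 library 1. Counting genes, 1, 0 and 0 had a peak in the dTAG47 libraries, against 22 and 7 in the DMSO libraries. The groups did not overlap (two-sided exact permutation test over libraries, p = 0.1, the least possible with 10 splits). The lists themselves held 408, 7 and 193 peaks in dTAG47 and 4010 and 1519 in DMSO, and the share of all entries with a peak was 2.45%, 0% and 0.946% in dTAG47, against 24.0% and 10.0% in DMSO. Other genes start in the same window, namely BECN1 (PSME3), MRPL32 (PSMA2), DNAJC2 (PSMC2), FTSJ3 (PSMC5), ACYP2 (PSME4) and, at PSMD9 and PSMA1, entries known only by an identifier, so those regions cannot be given to one gene.

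**Figure D1:**
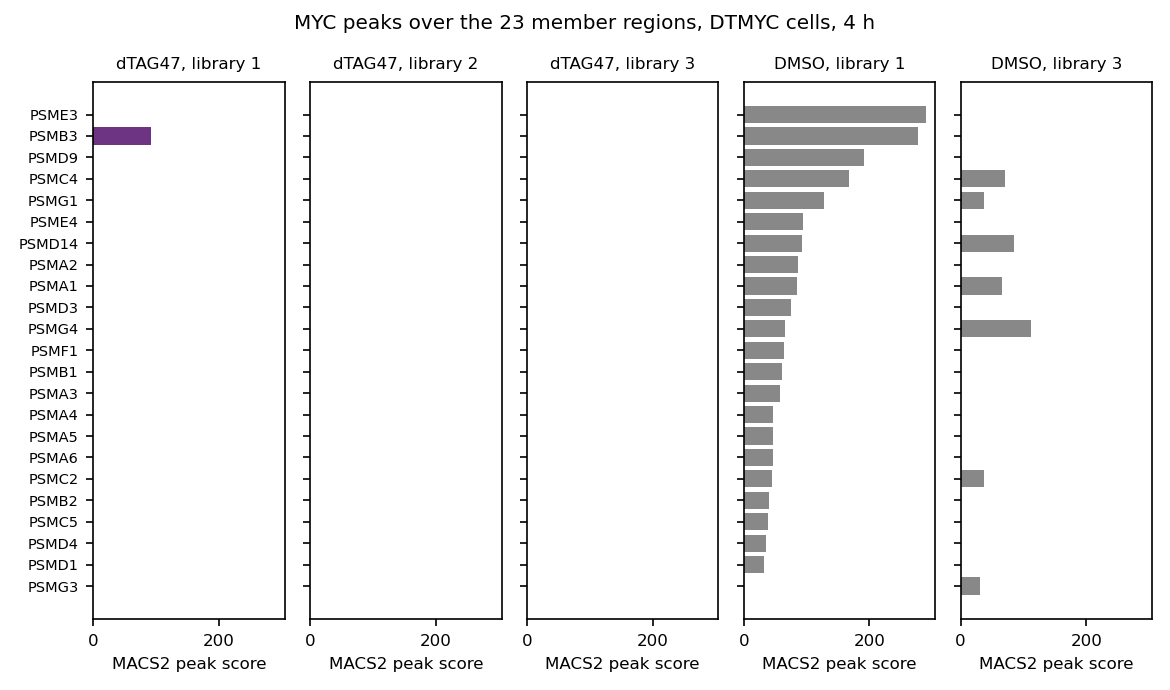
Peak score (10 times −log10 q, MACS2) at the 23 proteasome regions in each MYC ChIP-seq library, with dTAG47 libraries left of DMSO libraries. PSMB3 in dTAG47 library 1, at 91, is the only bar among the 3 dTAG47 libraries.

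Start sites of proteasome genes were open with and without dTAG47. An ATAC peak lay there for 43, 42 and 43 genes in the dTAG47 libraries and for 43, 43 and 40 genes in the DMSO libraries (exact permutation test, two-sided p of 1.0, where 0.1 is the smallest possible). Of the 43 genes, 40 were open in every library, against 76.1% of entries, and the exceptions were PSMB6, PSMC1 and PSMD4.

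In DTMYC cells 24 h of dTAG47 left most proteasome mRNAs near their DMSO level. Of 43 entries tested in DTMYC cells, 2 fell and 0 rose, against a background in which 8.71% of entries were called (4.44% fell and 4.27% rose), so the share that fell was close to the background. Both were assembly chaperones. PSMG4, which pairs with PSMG3 to build the alpha ring, was at 32.1, 30.8 and 28.2 CPM in dTAG47, against 43.3, 39.8 and 46.2 CPM in DMSO. PSMG1, which pairs with PSMG2 in the same step, was at 71.8, 71.8 and 77.2 CPM in dTAG47, against 95.6, 96.7 and 95.2 CPM in DMSO. Every dTAG47 library of both genes was below every DMSO library. The log2 fold change was −0.50 ± 0.09 (SE, edgeR quasi-likelihood test, Benjamini-Hochberg adjusted p = 0.00552) for PSMG4 and −0.38 ± 0.08 (adjusted p = 0.0109) for PSMG1. Over 19 alternative settings PSMG4 passed in each, with adjusted p up to 0.0388, while PSMG1 passed in 17 and missed without DTMYC dTAG47 library 1 or 2, with adjusted p up to 0.0652. PSMG4 overlaps SLC22A23 and TUBB2B on the genome, and the sources used here do not state whether counting used strand.

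Of the 7 assembly factors 6 had values below 0, PSMG4 and PSMG1 included, and the median of the 7 was −0.09, against 0.03 for all entries. PSMG3 had −0.24 ± 0.14 and PSMD9 had 0.03 ± 0.11, and neither passed. The core had a median of 0.03 with 0 of 14 called and changes between −0.22 and 0.21. PSMA7, an alpha subunit, was at 301.7, 292.4 and 299.1 CPM in dTAG47, against 294.3, 277.5 and 308.7 CPM in DMSO. PSMB4, a beta subunit, was at 349.7, 341.6 and 342.7 CPM in dTAG47, against 331.4, 293.1 and 341.5 CPM in DMSO. The PSMA7 libraries interleaved, whereas each PSMB4 library in dTAG47 was above the DMSO libraries by a narrow margin.

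Cap genes had a median of 0.06, and all 9 genes of the base had positive values, between 0.01 and 0.12, none of which passed. Over all entries, 7439 of 13401 had positive values. PSMD2, a scaffold of the base, was at 493.0, 497.1 and 481.5 CPM in dTAG47, against 480.5, 442.8 and 476.2 CPM in DMSO. Over all 43 proteasome entries, cap or not, libraries did not overlap for 10 above and 6 below, against 25.2% and 20.0% of all entries. Among activators, PSME3 was at 257.4, 262.1 and 266.8 CPM in dTAG47, against 294.5, 289.7 and 297.5 CPM in DMSO (log2 fold change −0.17 ± 0.08, adjusted p = 0.218). PSMF1, an inhibitor of the core, had −0.18 ± 0.07 (adjusted p = 0.139). The activators PSME1 (0.21) and PSME2 (0.17) went the other way, with every dTAG47 library above every DMSO library, and PSME4 had −0.03. None of the 5 genes of this group passed.

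Which genes pass in DTMYC cells depended on the parental libraries that share the estimate of spread. Without parental DMSO library 3, which is in neither DTMYC group, 5 genes fell (PSMG4, PSMG1, PSMG3, PSME3 and PSMF1), against 16.6% of all entries. With the 6 DTMYC libraries alone, PSMD7 joined them, giving 6 that fell against 19.9%. GC offsets adjust each library for a smooth trend with the GC content of the transcript and were added after the data were seen. With them 3 fell (PSMG4, PSMG1 and PSMF1 at −0.19) and PSME2 rose by 0.17, against 12.7% and 13.1% of entries. Of the 9 base genes, 7 were positive without parental DMSO library 3, 8 with the DTMYC libraries alone and 8 with GC offsets.

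The MYC regions and the mRNA changes were set side by side for the same entries. The 23 proteasome genes with a region had a median log2 fold change of 0.03, and the 20 without had 0.03. Over all entries the median was −0.07 for 3374 with a region and 0.07 for 9734 without, and 10.7% and 2.38% of them fell. Both proteasome genes that fell were among the 6 with a MYC peak in both DMSO libraries (33.3% of the 6 fell). The share that fell among all entries with a peak in both libraries was not worked out, so this share has no matching background. The other 4 genes bound in both libraries (PSMC4, PSMD14, PSMA1 and PSMC2) had values above 0, and none passed. Binding was measured at 4 h and mRNA at 24 h.

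**Figure D2:**
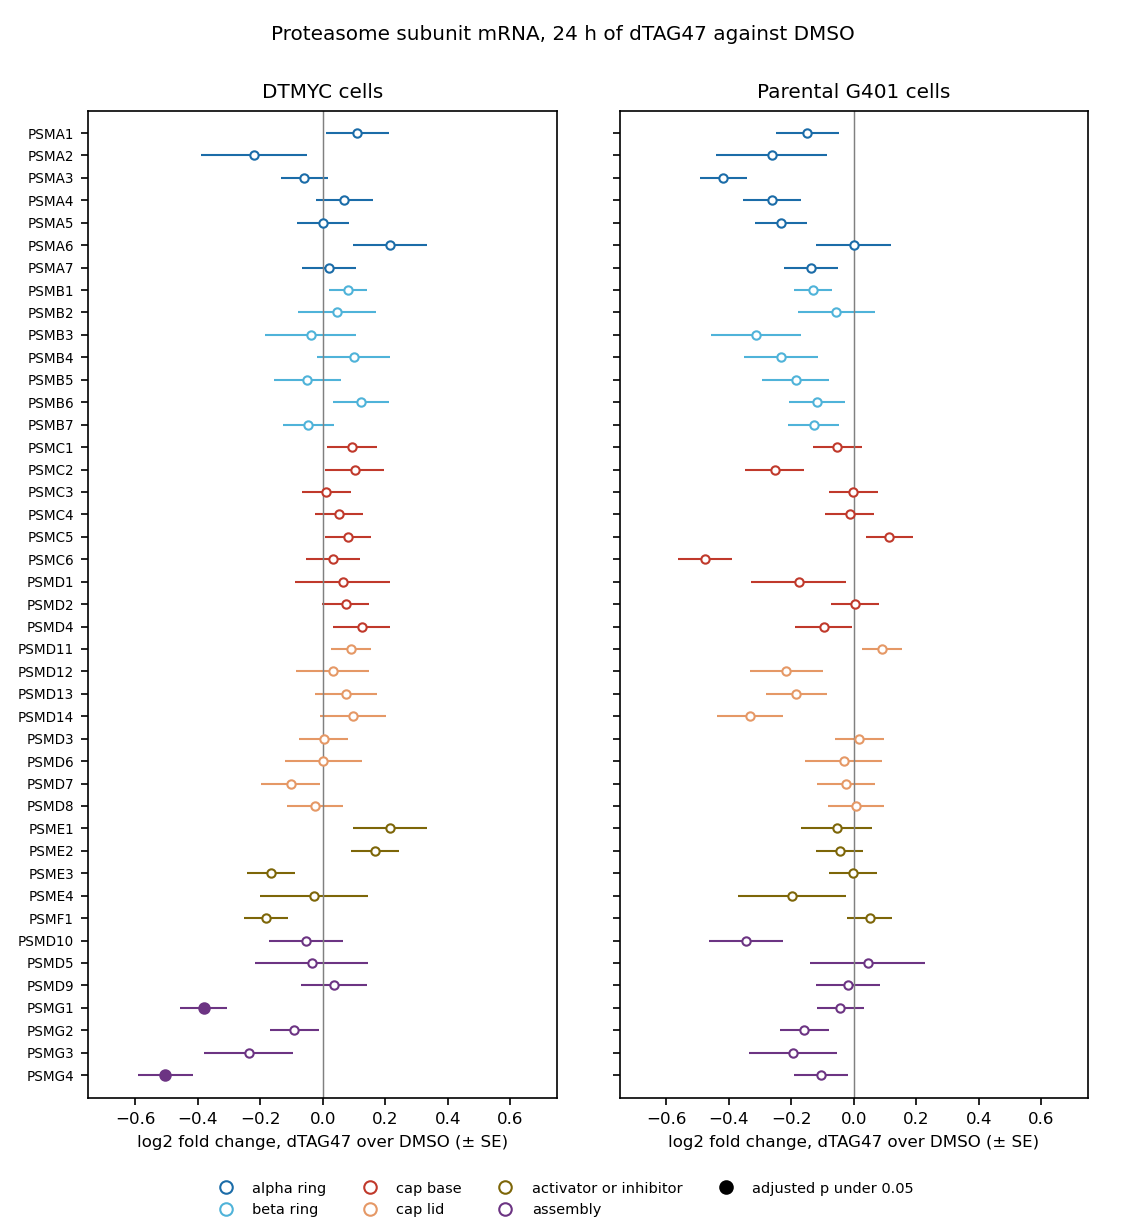
Log2 fold change of mRNA, dTAG47 over DMSO, with its SE for 43 proteasome entries by role, in DTMYC cells (left) and parental cells (right); filled points passed an adjusted p of 0.05. PSMG4 and PSMG1 are the filled points, both in DTMYC cells.

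Nascent transcription after 4 h had the same 2 assembly genes on the negative side. In the main fit, which did not pair libraries by number, no entry of the table passed in gene bodies, promoter-proximal regions or pausing (0.0% in each). Gene body CPM for PSMG4 was 27.02 and 23.6 in dTAG47, against 42.0 and 29.5 in DMSO. PSMG1 was at 22.5 and 21.1 CPM in dTAG47, against 26.4 and 24.9 CPM in DMSO. Neither overlapped between treatments, with log2 fold changes of −0.50 ± 0.19 (edgeR, unadjusted p = 0.043, adjusted p = 0.51) and −0.23 ± 0.12. The share of all entries without overlap was not worked out for gene bodies or promoter-proximal regions. With 2 libraries a group, this lack of overlap therefore has no background. Assembly factors had a median of −0.22 with 6 of 7 below 0, against 0.01 for the core, 0.03 for the cap and 0.02 for all entries. Activators or inhibitor had a median of −0.06 and ran from −0.31 to 0.60. At an unadjusted p under 0.05 there was 1 proteasome gene and 1298 entries in all. DESeq2 called 0 of the proteasome genes and 68 entries. With a block for the replicate number, edgeR called 4360 of 13397 gene bodies (2226 rose and 2134 fell). Among them were 8 proteasome genes, of which 1 rose and 7 fell. In promoter-proximal regions the blocked fit called 262 of 10226 entries and 0 proteasome genes. The labels do not say whether the numbers mark pairs.

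Promoter-proximal polymerase was tested for 41 of the genes, since PSMA1 and PSMF1 had no counts there. PSMG1 was at 71.2 and 70.6 CPM in dTAG47, against 86.7 and 91.8 CPM in DMSO, and PSMG4 at 72.8 and 61.3 CPM in dTAG47, against 82.3 and 77.9 CPM in DMSO. Both were lower in each dTAG47 library, with log2 fold changes of −0.33 ± 0.21 and −0.26 ± 0.21 that did not pass. All 9 base genes had values above 0, with a median of 0.22, against a median of 0.01 for all entries. Among them the ATPase PSMC2 was at 119.1 and 144.9 CPM in dTAG47, against 101.9 and 93.7 CPM in DMSO (edgeR, unadjusted p = 0.039). In these regions 2 proteasome genes and 661 of 10226 entries had an unadjusted p under 0.05, and none passed after adjustment. The ratio of promoter-proximal to gene body signal had a median log2 change of −0.15 in the proteasome genes and −0.17 in all entries.

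**Figure D3:**
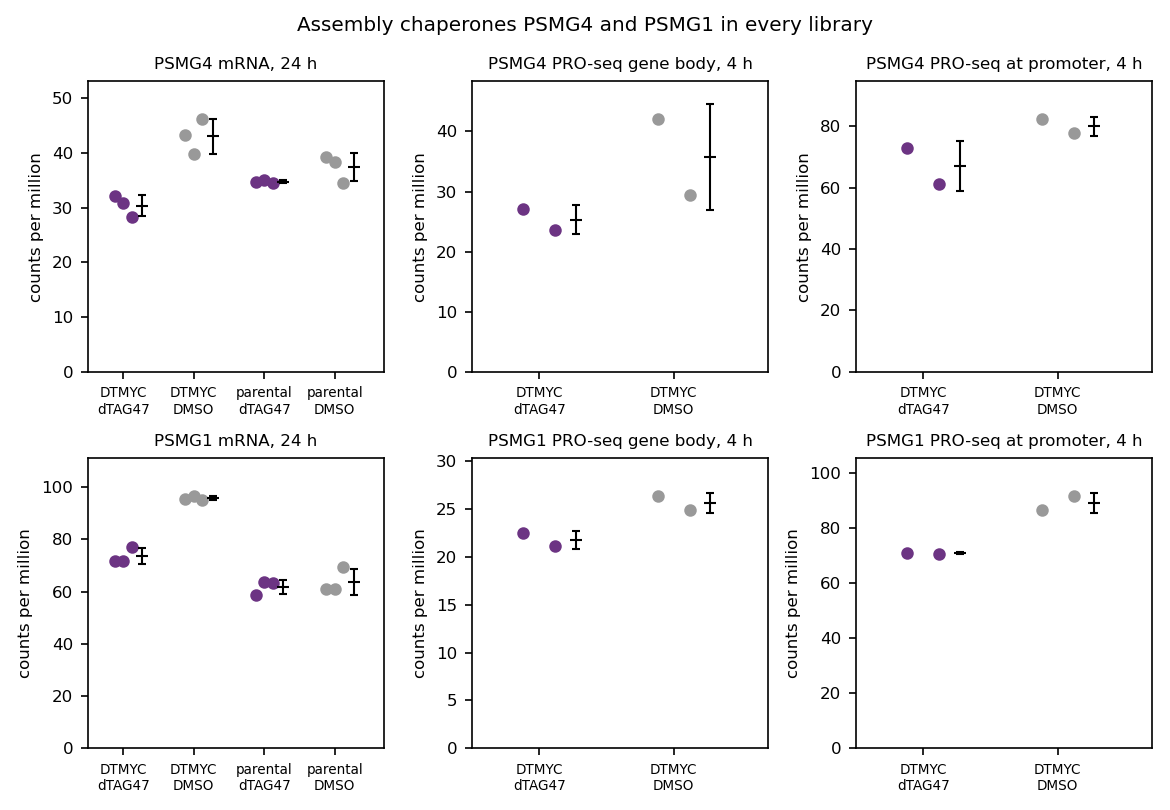
CPM of PSMG4 and PSMG1 in each library of mRNA, PRO-seq gene body and PRO-seq promoter-proximal counts, with mean and SD, dTAG47 left of DMSO. In every panel of DTMYC cells the dTAG47 points lie below the DMSO points.

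In parental cells 0 of 43 entries passed, against 0.127% of all entries (0.104% rose and 0.0224% fell). The 14 core genes all had negative values, with a median of −0.17 against −0.05 for all entries. With GC offsets 6 of 7 alpha and 7 of 7 beta genes were below 0, with medians of −0.05 and −0.19. The lowest adjusted p values were those of PSMC6, an ATPase of the base, and PSMA3, an alpha subunit. PSMC6 was at 82.6, 86.4 and 90.8 CPM in dTAG47, against 119.2, 107.8 and 134.9 CPM in DMSO (log2 fold change −0.48 ± 0.09, adjusted p = 0.0509). PSMA3 was at 97.2, 102.7 and 98.1 CPM in dTAG47, against 139.7, 121.8 and 136.7 CPM in DMSO (−0.42 ± 0.08, adjusted p = 0.0509). Neither gene overlapped between treatments. In all, 2 proteasome genes had every dTAG47 library above and 8 had every one below, against 8.73% and 6.63% of entries. PSMG4 was at 34.8, 35.0 and 34.5 CPM in dTAG47, against 39.4, 38.4 and 34.4 CPM in DMSO, and PSMG1 at 58.8, 63.6 and 63.3 CPM in dTAG47, against 60.9, 61.0 and 69.4 CPM in DMSO. These 2 overlapped. At an unadjusted p under 0.05 there were 7 proteasome genes and 2074 entries, and DESeq2 called PSMC6 and PSMA3.

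Parental DMSO library 3 carried weight here. Without it 14 genes passed, against 20.1% of all entries: PSMD5 rose (9.17% of entries did) and 13 fell (10.9%), among them 6 of the 7 beta ring genes, with PSMB3 at −0.49 and PSMB4 at −0.38. The parental response also followed the GC content of the transcript, with a Spearman correlation of 0.42 over 43 proteasome entries and 0.33 over 13052 entries, given as a description. With GC offsets PSMC6 was at −0.24 (adjusted p = 0.136) and PSMA3 at −0.28 (0.16), while PSMB1 (−0.19, 0.0337) and PSMD14 (−0.25, 0.0313) passed, 2 genes against 7.52% of entries. The part of GC content in this response was not tested.

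The difference between the 2 responses was tested as an interaction. Of the proteasome genes 0 passed, against 1.19% of entries (0.597% positive and 0.59% negative). PSMC6 had 0.51 ± 0.12 (adjusted p = 0.0667), PSMG4 −0.40 ± 0.12 (0.113) and PSMG1 −0.34 ± 0.11 (0.12). With all 12 libraries and TMM scaling, the responses of PSMG4 and PSMG1 were thus not shown to differ between the lines. With GC offsets they passed, PSMG4 at −0.35 (adjusted p = 0.00729) and PSMG1 at −0.47 (0.0153), among 8 proteasome genes against 15.4% of entries, while PSMC6 was at 0.20 (0.347). Unadjusted, 9 proteasome genes and 2574 entries had p under 0.05. DESeq2 called PSMC6 and PSMG1. Without parental DMSO library 3, 12 passed, against 17.9% of entries. Of these 9 were positive (8.3% of entries) and 3 negative (9.58%): PSMG4 at −0.37, PSMG1 at −0.43 and PSMD5 at −0.42.

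DTMYC and parental cells differed in most proteasome mRNAs before any treatment, and most entries of the table differed too. Directions are given with TMM scaling. An adjustment for GC content, described further below, ends several calls. Among the genes called in DMSO it reverses the directions of PSMC6, PSMA3, PSMA6, PSMD3, PSMD14, PSMG2 and PSMC2. In DMSO 17 of the 43 were higher and 18 lower in DTMYC cells, against 73.3% of all entries called (36.0% higher and 37.3% lower). Libraries did not overlap for 15 genes above and 15 below, against 34.9% and 36.6% of entries. Without parental DMSO library 3, 18 were higher and 19 lower, against 81.4% of entries called (40.3% and 41.1%). Of the beta ring, 7 of 7 were lower, with a median of −0.50 against 0.00 for all entries. PSMB6, the caspase-like protease, was at 138.0, 124.2 and 147.0 CPM in DTMYC cells, against 227.7, 246.2 and 196.6 CPM in parental cells (log2 fold change −0.71 ± 0.09, adjusted p = 1.51e-05). PSMB1 was at 198.4, 187.1 and 206.5 CPM in DTMYC cells, against 263.2, 252.7 and 255.4 CPM in parental cells (−0.38, adjusted p = 0.000119). Neither overlapped. PSMB4 was at 331.4, 293.1 and 341.5 CPM in DTMYC cells, against 636.5, 538.3 and 427.3 CPM in parental cells (−0.73 ± 0.12). For PSMB7, the trypsin-like protease, the values were 243.3, 218.0 and 255.3 CPM in DTMYC cells, against 356.8, 350.6 and 304.0 CPM in parental cells (−0.50 ± 0.08). These too were free of overlap, with parental library 3 nearest to DTMYC cells in each. PSMB3 was lower as well (−0.74 ± 0.15). PSMB5, the chymotrypsin-like protease, was lower by less: −0.40.

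The alpha ring was divided. PSMA7 was at 294.3, 277.5 and 308.7 CPM in DTMYC cells, against 583.0, 541.2 and 456.9 CPM in parental cells (−0.84 ± 0.09, adjusted p = 2.51e-06). PSMA1 was at 45.8, 54.2 and 43.4 CPM in DTMYC cells, against 29.1, 26.8 and 32.0 CPM in parental cells (0.70 ± 0.10). These do not overlap and point in opposite directions. PSMA2 was at 10.3, 11.6 and 8.66 CPM in DTMYC cells, against 4.16, 4.72 and 6.71 CPM in parental cells (0.97 ± 0.17), and PSMA6 at 13.2, 13.2 and 13.6 CPM in DTMYC cells, against 8.77, 10.5 and 11.7 CPM in parental cells (0.37 ± 0.12). Both were higher in every DTMYC library. The PSMA2 entry shares its genome position with a second PSMA2 entry and MRPL32, PSMA6 with KIAA0391 and PSMA1 with COPB1, so those values are uncertain.

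Within the cap, PSMD4, a ubiquitin receptor, was at 187.9, 172.2 and 200.1 CPM in DTMYC cells, against 368.7, 325.6 and 279.5 CPM in parental cells (−0.80 ± 0.09). PSMD12, a lid subunit, was at 164.2, 190.9 and 169.4 CPM in DTMYC cells, against 80.5, 83.7 and 112.3 CPM in parental cells (0.92 ± 0.12). Neither overlapped, and they differed in opposite directions. The base scaffold PSMD2 had 480.5, 442.8 and 476.2 CPM in DTMYC cells, against 777.5, 755.6 and 646.1 CPM in parental cells (−0.64 ± 0.08). The ATPase PSMC3 had 244.8, 215.8 and 251.3 CPM in DTMYC cells, against 307.1, 344.8 and 295.1 CPM in parental cells (−0.41 ± 0.08). The ATPase PSMC2 went the other way, with 210.3, 203.1 and 216.9 CPM in DTMYC cells, against 143.8, 146.1 and 179.7 CPM in parental cells (0.42 ± 0.09). None of the 3 overlapped, and base genes lay on both sides. In the lid, PSMD11 was at 374.9, 394.2 and 390.6 CPM in DTMYC cells, against 336.8, 341.6 and 302.1 CPM in parental cells (0.24 ± 0.06). PSMD3 was at 362.7, 351.7 and 389.6 CPM in DTMYC cells, against 428.0, 497.1 and 404.9 CPM in parental cells (−0.27 ± 0.08), and PSMD7 at 65.9, 65.2 and 65.5 CPM in DTMYC cells, against 48.3, 52.0 and 62.3 CPM in parental cells (0.27 ± 0.09). All 3 were free of overlap, and PSMD3 alone of them was lower in DTMYC cells.

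The widest gap was at an activator. PSME1, which forms the interferon-inducible activator with PSME2, was at 19.0, 17.3 and 20.3 CPM in DTMYC cells, against 85.6, 78.8 and 61.8 CPM in parental cells (−1.998 ± 0.12, adjusted p = 1.84e-08). PSME2 was at 60.4, 53.5 and 59.8 CPM in DTMYC cells, against 110.3, 108.5 and 99.4 CPM in parental cells (−0.87 ± 0.08). PSME4, a nuclear activator, was at 178.8, 185.5 and 177.7 CPM in DTMYC cells, against 73.6, 67.2 and 117.7 CPM in parental cells (1.07 ± 0.17). All 3 were free of overlap, in opposite directions. PSMD5, a chaperone of the base, was at 55.8, 60.0 and 55.4 CPM in DTMYC cells, against 20.9, 19.0 and 34.8 CPM in parental cells (1.20 ± 0.18). PSMG1 was at 95.6, 96.7 and 95.2 CPM in DTMYC cells, against 60.9, 61.0 and 69.4 CPM in parental cells (0.59 ± 0.08), and its partner PSMG2 at 48.0, 50.2 and 45.0 CPM in DTMYC cells, against 40.2, 38.9 and 41.2 CPM in parental cells (0.25 ± 0.08). PSMD9 was lower in DTMYC cells, at 10.6, 10.8 and 12.6 CPM in DTMYC cells, against 17.3, 17.1 and 15.3 CPM in parental cells (−0.54 ± 0.10). No overlap was seen in these assembly genes. PSMF1 was at 140.9, 135.6 and 146.0 CPM in DTMYC cells, against 161.9, 181.5 and 157.1 CPM in parental cells (−0.24 ± 0.07), also without overlap. PSME1 overlaps EMC9, PSME2 overlaps RNF31 and PSMD9 overlaps WDR66 and RP11-87C12.2 on the genome.

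In dTAG47 the lines differed likewise: 17 higher and 16 lower in DTMYC cells, against 76.4% of entries (37.4% higher and 38.9% lower), with 6 of 7 beta genes lower and PSMB2 at −0.20 not called. With GC offsets 3 of the 7 beta genes were lower (PSMB1, PSMB2 and PSMB7), PSMB5 was at 0.034 and the ring median was −0.14. The 2 comparisons of lines share no library, but each shares its groups with the treatment comparisons. PSME1 was at 22.4, 22.9 and 20.4 CPM in DTMYC cells in dTAG47, against 76.9, 71.8 and 68.8 CPM in parental cells in dTAG47 (−1.73 ± 0.12). PSMC6, which had 0.31 in DMSO, was at 145.7, 150.4 and 161.7 CPM in DTMYC cells, against 82.6, 86.4 and 90.8 CPM in parental cells (0.82 ± 0.09) in dTAG47. PSMA3 was at 138.6, 144.3 and 158.9 CPM in DTMYC cells, against 97.2, 102.7 and 98.1 CPM in parental cells (0.57 ± 0.08) and the lid deubiquitinase PSMD14 at 184.5, 193.3 and 202.1 CPM in DTMYC cells, against 108.8, 128.3 and 125.4 CPM in parental cells (0.68 ± 0.11). Those 3 were higher in every DTMYC library, but with GC offsets PSMC6 was at −0.28, PSMA3 at −0.30 and PSMD14 at 0.02 (adjusted p = 0.807). Of the 43 proteasome entries, 19 were above and 19 below without overlap in dTAG47, against 41.3% and 43.1% of all entries.

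These differences followed base composition. The log2 difference in DMSO fell with transcript GC content, with a Spearman correlation of −0.68 over 43 proteasome entries and −0.45 over 13052 entries, and the median over all entries was 0.62 among entries of low GC, −0.09 among those of middle GC and −0.44 among those of high GC, in 3 groups of about equal size. The median GC was 52.0% in the beta ring and 41.4% in the alpha ring. With GC offsets per library 9 genes were higher and 21 lower in DMSO (35.2% and 38.6% of entries), in place of 17 and 18. PSME1 was then at −1.80 and PSME4 at 0.57, and 6 of the 7 beta genes were lower with a ring median of −0.42, while PSMB5 no longer passed. PSMA1 (0.10), PSMC3 (−0.05), PSMD11 (0.06), PSMD7 (0.02), PSMD6 (0.08), PSMD1 (0.03), PSMD13 (−0.09) and PSMG1 (0.03) did not pass either. PSMD12 was at 0.17, PSMA2 at 0.28, PSMD5 at 0.60, PSMD2 at −0.38, PSMB6 at −0.37, PSMB3 at −0.45 and PSMD9 at −0.36, all still past the threshold. The reversed genes included PSMC6 at −0.48 and PSMA3 at −0.47. The part of GC content in the difference was not tested.

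**Figure D4:**
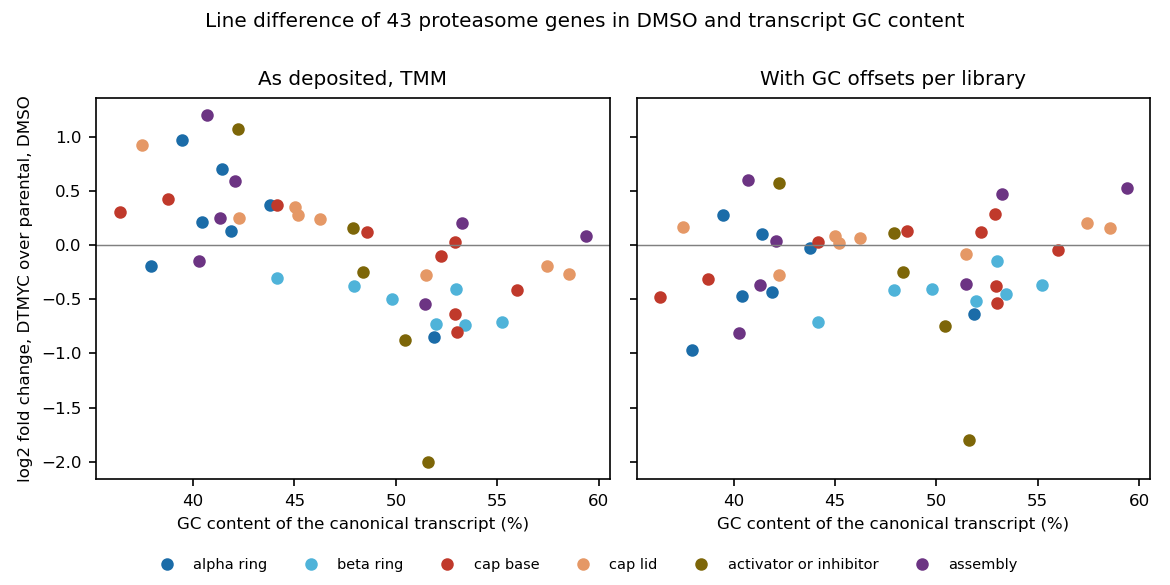
Log2 fold change of mRNA in DMSO, DTMYC over parental cells, against transcript GC content for the proteasome entries, with TMM scaling (left) and with GC offsets (right). The beta ring lies below 0 in both panels, and PSME1 is the lowest point, at −1.998 and −1.80.

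Levels in DTMYC cells in DMSO were compared per length, as CPM per kb of merged exons. The beta ring was the most abundant group (median 110), above the base (63.5), the lid (40.2), the alpha ring (29.1), the activators (17.6) and the assembly factors (14.2). PSMA7 was highest at 168 ± 8.9 (SD, n = 3), followed by PSMB3 at 154 ± 16 and PSMB4 at 149 ± 12. Differences among these genes were not tested. PSMD9 was lowest at 1.29, with its overlap with WDR66 and RP11-87C12.2 on the genome not resolved. By canonical transcript length the beta ring was again highest (221), while the assembly median (44.6) came level with the alpha ring (43.7). In this order PSMB4 (351) and PSMA7 (305) led. For PSMB2, PSMA4, PSMC1 and PSMF1 the canonical transcript is longer than the merged exons (4426 against 2701 bases for PSMB2). The canonical scale may understate these genes. Over 43 entries the 2 scales had a Spearman correlation of 0.84, and mRNA and gene body level one of 0.57, as descriptions.

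The alpha ring spanned 0.877 to 6.83 gene body CPM per kb, and 7.10 to 305 CPM per kb in mRNA by canonical length. PSMA6 had 4.18 gene body CPM per kb and PSMA2 had 3.80, close to the alpha ring median of 4.07, but their mRNA levels by canonical length were 13.04 and 7.10 against 43.7. PSMG3 had the highest gene body level, 10.2. Gene overlap was not resolved for PSMA6 and PSMA2.

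**Figure D5:**
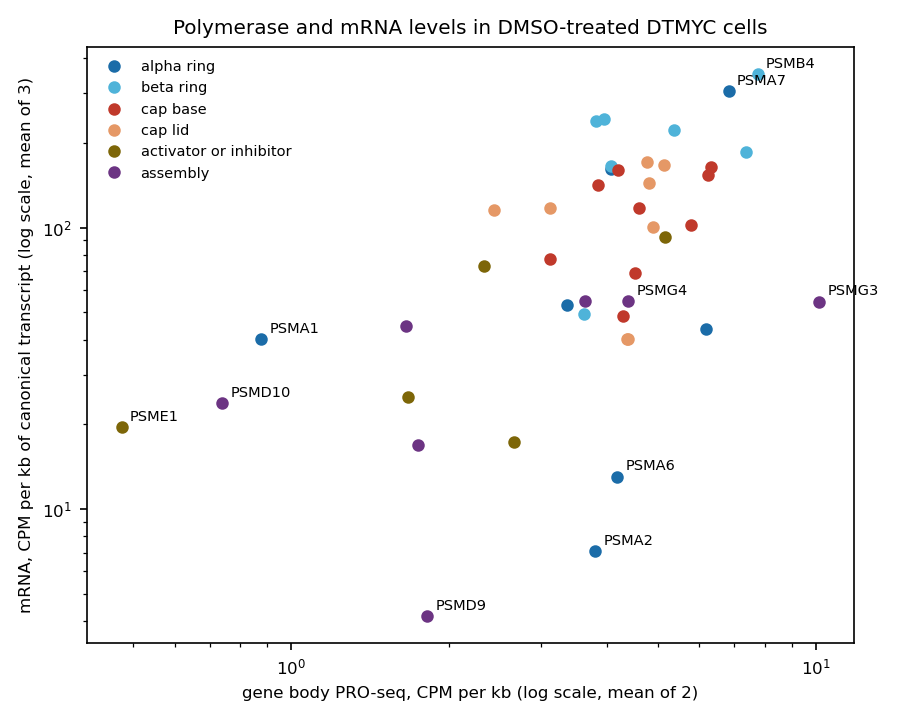
mRNA level (CPM per kb of canonical transcript) against gene body level (CPM per kb) of the proteasome entries in DTMYC cells in DMSO, both on log axes. PSMA2 and PSMA6 lie low in mRNA for a gene body level near the alpha ring median.

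Genes that act with the proteasome were read from a list of 30, of which 27 were tested. In DTMYC cells 1 rose and 0 fell, against 8.71% of all entries called. NFE2L1, the transcription factor that raises proteasome genes when proteolysis is impaired, was at 344.0, 348.8 and 317.9 CPM in dTAG47, against 273.1, 269.1 and 274.5 CPM in DMSO (0.31 ± 0.07, adjusted p = 0.0189). It passed in 14 of 19 settings. In parental cells it was at 301.2, 286.7 and 305.7 CPM in dTAG47, against 284.4, 288.7 and 253.7 CPM in DMSO (0.11 ± 0.07), and 0 of 27 passed. The interaction passed for 0 of the 27, with NFE2L1 at 0.20 ± 0.10 (edgeR, adjusted p = 0.299). Its responses were thus not shown to differ between the lines. Between lines in DMSO 13 were higher and 9 lower in DTMYC cells, against 73.3% of entries called, and ECPAS, a proteasome adaptor, was among the higher ones (0.97 ± 0.14).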

How the data were processed

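RNA-seq, PRO-seq, MYC ChIP-seq and ATAC-seq libraries were grouped by their labels. Ribosomal RNA was depleted before RNA-seq, per the labels' protocols. The submitters' processing notes list cutadapt, STAR, Bowtie2, featureCounts, MACS2, DiffBind and DESeq2, with hg19 as build and roles and versions not given in the sources used here. The authors deposited raw counts per gene for RNA-seq, with a merged exon length for each entry, and counts of promoter-proximal regions and gene bodies for PRO-seq. The deposited gene body density, a signal per length with no scaling for depth, was used only to work out that length. The deposited peak lists give a score, called per library. ChIP-seq labels name a MYC antibody and the list names say HA. The 3 IgG libraries were not analysed here. Some genes of the partner list and a promoter sequence are not reported here.

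Counts were tested with edgeR 4.0.16 (R 4.3.3; filterByExpr, TMM, quasi-likelihood F-test, two-sided, Benjamini-Hochberg adjustment, threshold 0.05). All 12 RNA-seq libraries entered 1 fit. PRO-seq gene bodies, promoter-proximal regions and their ratio (pausing) were fitted apart. All entries were adjusted together. CPM use effective library sizes. DESeq2 1.42.0 was an alternative. Start sites came from GENCODE v44 lifted to hg19, and ATAC peaks counted within 500 bases. Peak counts were compared by exact permutation. The scripts were tested on simulated data. The genes, roles and lists were chosen with earlier results of these data known. Values in every library are given for up to 4 genes per role and comparison past the threshold (smallest adjusted p first), for the highest-scoring MYC regions and for the most abundant gene of a role with none past it. In the comparison of lines in dTAG47 they are given for genes that the rule added to those named in DMSO. PSMC6 and PSMA3 in parental cells and the motif and binding splits were singled out after their values were seen.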

Additional observations from a re-analysis of the deposited data

How the results depend on the processing

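Counts of proteasome genes past the threshold moved by over 1.5 times in these cases. In DTMYC cells (2 with all 12 libraries) there were 6 with the 6 libraries of the line (36.5% of entries called) and 4 with GC offsets (25.8%). In parental cells (0) there were 2 with library totals (85 entries in all), 2 with DESeq2 (302), 2 with GC offsets (7.52%) and 1 with the replicate block (27 entries). For the interaction (0) there were 2 with DESeq2 (585 entries), 8 with GC offsets (15.4%) and 1 with the replicate block (263 entries). Gene bodies (0) gave 8 with the replicate block, which called 4360 entries in all. The labels do not say whether replicate numbers pair the libraries, and the main fits did not pair them. Same-numbered deviations correlated between -0.05 and 0.08 in DTMYC and between 0.05 and 0.37 in parental RNA-seq. In parental cells each same-numbered value was above the highest one with another number (0.24, 0.027 and -0.25 for libraries 1, 2 and 3). In DTMYC cells this held for library 1 alone. PRO-seq has only 2 pairs, at 0.64 for same numbers and -0.64 for unlike numbers. MYC regions (23) numbered 6 with a peak in both libraries and 14 at a score of 50 or more.

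Leaving out 1 library gave 1 to 5 genes in DTMYC cells, 0 to 14 in parental cells, 0 to 12 for the interaction and 28 to 37 between the lines in either treatment. The highest of each came without parental DMSO library 3. The difference in genes with a MYC peak ranged from -21.7 to -6.67, and that for ATAC from -0.333 to 1.17, reversing to -0.333 without ATAC DMSO library 3. Reversals between lines with GC offsets were followed only for genes past the threshold with TMM scaling. Genes not called there could reverse too, such as PSMA4 (0.13 to -0.43) and PSMD8 (-0.19 to 0.21) in DMSO. Of the called genes, those reversed in DMSO were PSMC6 -0.48, PSMA3 -0.47, PSMA6 -0.027, PSMD3 0.16, PSMD14 -0.28, PSMG2 -0.37 and PSMC2 -0.31. In dTAG47 they were PSMA4 -0.25, PSMD8 0.22, PSMC6 -0.28, PSMA3 -0.30, PSMB5 0.034, PSMD3 0.18, PSMG2 -0.46, PSMC2 -0.21, PSMC3 0.0099 and PSMG1 -0.43. The cause was not tested. Of the other single-gene values 1147 kept direction and side of the threshold and 117 kept direction only. With 2 PRO-seq libraries a group, small changes are hard to detect, and the depth behind the peak lists is unknown.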
